A study of Mus musculus with 8 samples.

Results

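The 8 hearts of this study were placed on a Dbp-high and a Dbp-low side, with 4 of 8 hearts on each. The sides were chosen by a measured value, the array signal of Dbp in each heart, and are no groups of the study. Dbp encodes a transcription factor whose mRNA is among the most strongly rhythmic of the mouse heart. The Dbp probe with the highest mean signal was used, the hearts were ranked by it, and all other genes were compared between the sides and against the Dbp level itself. The clock genes described below were singled out with earlier results of these data known.

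All hearts came from male C57BL6 mice, 4 labelled control and 4 labelled dtg. Control mice carried Cre recombinase without floxed Igf1r, the gene of the insulin-like growth factor 1 receptor. The dtg mice were merCremer/+ IGFloxP/IGFloxP, that is, they carried a tamoxifen-dependent Cre recombinase and floxed receptor alleles. The sources used here do not name the promoter that drives merCremer. Mice of both genotypes received 4OH-Tamoxifen at an age of 8 months (500 µg on each of 10 days) and their hearts were taken 6 weeks later. The mice were kept on 12 h of light and 12 h of dark, and the labels do not give the time of day at which a heart was taken. Nothing in the labels ties each sample to its own mouse, so the p-values reflect the spread among these 8 samples, part of which may be technical.

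The circadian clock of a heart cell is a loop of transcription factors. CLOCK or NPAS2 pairs with the Arntl product BMAL1 and switches on genes with E-boxes, among them the repressors Per, Cry, Ciart and Bhlhe40, which then shut the pair down. The receptors encoded by Nr1d1 and Nr1d2 repress Arntl, Npas2 and Nfil3 through ROR elements, which RORs activate. Dbp, Tef and Hlf encode PAR bZIP factors, which activate genes with D-boxes, and the Nfil3 product represses the same sites. Dbp and Arntl mRNA are known to peak at opposite times of day, so their levels depend on the time at which a heart is taken. That time is not known here, so the Dbp level was not checked as a reading of phase.

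Promoter sequences of 5 of these genes are shown because they carry the sites through which the loop is known to work. They are RefSeq sequences of build GRCm38.p6, 250 bases before to 50 after a transcription start, written 5′ to 3′ on the strand of the gene. A promoter of this length was held for 18 genes of the clock lists and Usp2 together. An E-box (CACGTG) was found in 5 of them (Per1, Cry1, Ciart, Bhlhe41 and Tef), a D-box (TTATGTAA or TTACGTAA) in Per3, and the core of a ROR element (TAGGTCA) in Arntl and Nfil3, with both strands searched. Of 32851 mouse promoters of the same length, 7.15% held the E-box, 1.06% the D-box and 2.61% the ROR core. These shares count promoters, whereas the counts above take a gene with a match at any of its starts. Per1 and Arntl each have another start whose window holds no such match. Capitals mark the match. The E-box is in the promoters of Ciart (chr3:95882179-95882478, minus strand), with 3 matches, and Tef (chr15:81802423-81802722, plus strand). The ROR core is in the promoters of Arntl (chr7:113207261-113207560, plus strand) and Nfil3 (chr13:52980990-52981289, minus strand, where the match reads TGACCTA because it lies on the opposite strand). The D-box occurs at 2 places in the promoter of Per3 (chr4:151044616-151044915, minus strand).
Ciart: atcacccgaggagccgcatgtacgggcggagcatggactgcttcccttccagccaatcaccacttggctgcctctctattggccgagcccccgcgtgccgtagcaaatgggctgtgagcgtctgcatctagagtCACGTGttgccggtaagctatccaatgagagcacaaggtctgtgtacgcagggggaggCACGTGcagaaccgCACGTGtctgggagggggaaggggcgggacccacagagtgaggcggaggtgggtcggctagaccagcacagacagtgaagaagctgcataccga
Tef: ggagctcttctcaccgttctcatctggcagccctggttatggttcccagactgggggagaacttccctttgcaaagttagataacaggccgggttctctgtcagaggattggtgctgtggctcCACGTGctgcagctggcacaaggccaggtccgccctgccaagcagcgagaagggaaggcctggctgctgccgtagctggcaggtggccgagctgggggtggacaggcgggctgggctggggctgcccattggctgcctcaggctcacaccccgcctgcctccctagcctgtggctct
Arntl: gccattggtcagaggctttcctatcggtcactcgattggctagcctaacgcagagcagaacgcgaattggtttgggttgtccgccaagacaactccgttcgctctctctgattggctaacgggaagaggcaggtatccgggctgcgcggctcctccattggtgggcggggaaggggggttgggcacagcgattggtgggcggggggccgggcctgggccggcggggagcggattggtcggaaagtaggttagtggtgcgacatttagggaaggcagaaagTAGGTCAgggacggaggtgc
Nfil3: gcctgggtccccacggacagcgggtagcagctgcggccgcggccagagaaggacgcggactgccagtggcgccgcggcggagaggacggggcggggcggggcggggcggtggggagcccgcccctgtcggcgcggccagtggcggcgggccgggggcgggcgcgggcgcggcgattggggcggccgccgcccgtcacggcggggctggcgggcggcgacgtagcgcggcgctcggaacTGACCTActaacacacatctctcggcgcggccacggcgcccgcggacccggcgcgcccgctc
Per3: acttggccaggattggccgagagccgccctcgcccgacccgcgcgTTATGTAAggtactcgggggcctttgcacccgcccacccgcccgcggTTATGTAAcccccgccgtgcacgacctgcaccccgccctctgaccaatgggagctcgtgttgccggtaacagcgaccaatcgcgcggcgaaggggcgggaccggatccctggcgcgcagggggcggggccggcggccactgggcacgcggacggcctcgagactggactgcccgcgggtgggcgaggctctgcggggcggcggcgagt
These matches describe the letters of the windows and were not tested for binding.

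Signals are given throughout as log2 of the processed signal minus the 75th percentile of the array, so a value of 0 is the level of the array's 75th percentile, and values of different probes are not set against each other. Between 59.1% and 71.4% of probes were well above background per array, and the 75th percentile itself lay between 738 and 1027 intensity units. The 10 cardiomyocyte markers, among them Tnni3 and Ttn, were measured in every heart. Their mean lay between 7.63 and 7.74 on the low side and between 7.63 and 7.84 on the high side. Pairs of arrays correlated at r between 0.973 and 0.995 over all features. The arrays of control 4, dtg 3 and dtg 4, all on the high side, stood apart: their highest correlation with any other array was 0.988, while the other arrays of a slide correlated with each other at 0.994 or more. In tissue RNA, fewer cells of a type and less RNA per cell cannot be told apart.

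The Dbp signal was 2.23 in control 1 and 2.95 in control 2. It was 4.28 in dtg 1 and 4.50 in control 3, which complete the low side. On the high side it was 4.50 in dtg 2, 4.80 in dtg 3, 4.86 in control 4 and 5.37 in dtg 4. The hearts thus spanned 8.82-fold, and the level was lower in control 1 and control 2 than in the other 6 by a gap of 1.33, the widest in the ranking. The hearts just inside and just outside the high side, dtg 2 and control 3, differed by 0.00499, so the boundary between the sides runs through a near tie. The other Dbp probe gave the same sides. With quantile normalization and with the authors' deposited values, control 3 and dtg 2 changed places.

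**Figure D1:**
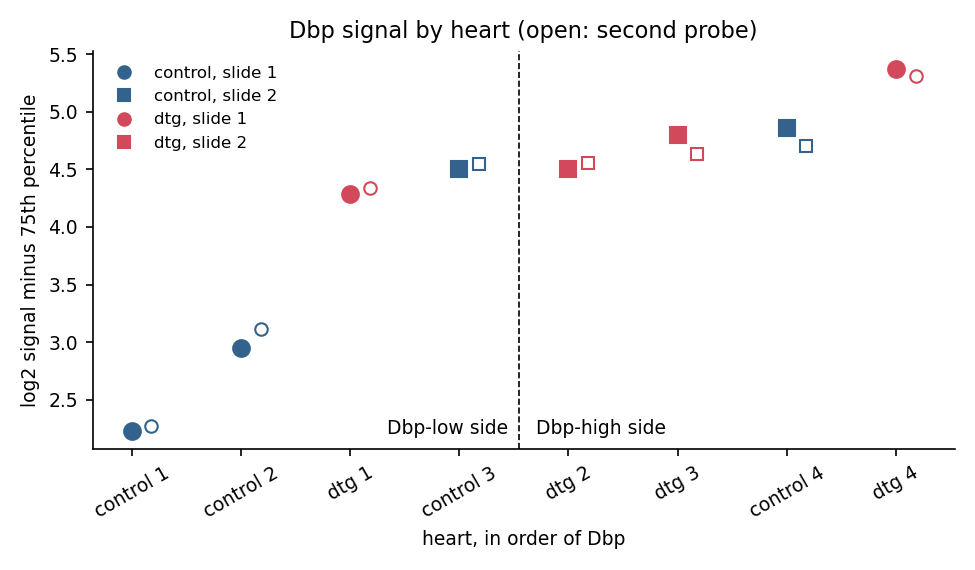
Dbp signal (log2 signal minus the 75th percentile of the array) of the 8 hearts in rank order, with blue for control and red for dtg, circles for slide 1 and squares for slide 2, and open symbols for the other Dbp probe. Control 1 and control 2 lie at 2.23 and 2.95, and the dashed boundary between the sides falls between control 3 and dtg 2, both at 4.50.

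Genotype and slide were both uneven over the sides. The high side held 3 dtg hearts and 1 control heart, and the low side 3 control hearts and 1 dtg heart (Fisher's exact test, two-sided p = 0.486). It held 3 hearts of slide 2 and 1 of slide 1, again with the reverse on the low side (two-sided exact p = 0.486). The test with 4 hearts of each kind does not show that genotype and slide are balanced over the sides. With the sides from quantile normalized Dbp each side held 2 dtg and 2 control hearts, while slide stayed at 3 against 1. The effects of slide, genotype and Dbp are therefore partly mixed in every comparison of the sides, and some values with slide as a block or within genotype are given below.

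Across the 21411 features tested with limma, 0 (0.0%) differed between the sides at an adjusted p under 0.05, the lowest adjusted value being 0.528. Without adjustment 1845 features (8.62%) had a p under 0.05, 1252 of them higher and 593 lower on the high side. The 4 values of one side lay entirely above those of the other for 645 features that were higher on the high side (3.01%) and 247 that were lower (1.15%), together 892 (4.17%). Since the low side mixes hearts of very low and of middle Dbp, each gene was also fitted as a slope, the change in its log2 signal per unit of log2 Dbp signal, that is per doubling of Dbp. The slope fit gave 0 features at an adjusted p under 0.05 as well (smallest adjusted p = 0.144) and 2540 at an unadjusted p under 0.05 (11.9%). Dbp and every other gene share the scaling of each array, and another scaling, by the median of the array, put the median difference of all features between the sides at 0.10 in place of 0.01, and the median slope at 0.07 in place of -0.01.

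Of the 20 genes of the 4 clock lists 19 passed the filter on dim probes; Cry1, a repressor, was well above background on 3 of 8 arrays and was left out. Of these 19, 10 had a slope at an unadjusted p under 0.05, 8 with Dbp and 2 against it, where 11.9% of all features did. The median size of the slope was 0.32 over the 19 genes and 0.10 over all features. Between the sides, 6 of 19 reached an unadjusted p under 0.05 against 8.62% of all features, and the median size of the difference was 0.50 against 0.18. Both medians over the 19 genes include Nr1d1, with a slope of -0.39 and a side difference of -0.82. These carry a low value of dtg 4 that is described below. The sides did not overlap for 2 of 19, Arntl and Per2, against 4.17% of all features. The 4 features with the smallest p of all 21411 in the slope fit were, in order, Ciart, Arntl, Usp2 and Bhlhe40, and Tef was the sixth.

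Among the activators, Arntl stood opposite to Dbp. Its signal was 0.69 in control 1, 0.47 in control 2, -0.20 in dtg 1 and -0.37 in control 3 on the low side. On the high side it was -0.42 in dtg 2, -0.52 in dtg 3, -0.67 in control 4 and -1.34 in dtg 4, so the order of the hearts by Arntl was the reverse of the order by Dbp, and the sides did not overlap. The high side had a mean of -0.74 ± 0.41 (SD, n = 4) and the low side of 0.15 ± 0.51 (SD, n = 4), a difference of -0.88 (SE 0.30, limma adjusted p = 0.528). The slope was -0.58 (SE 0.07, adjusted p = 0.18). Clock, which encodes a partner of BMAL1, lay between -0.64 and -0.08 in all hearts, with a slope of -0.01 (SE 0.07). Npas2, the gene of the alternative partner, which was well above background on 5 of 8 arrays, lay between -6.00 and -3.51 with a slope of -0.18 (SE 0.27). Its means were -5.07 on the high and -5.06 on the low side, so of the genes taken as markers of a Dbp phase, Npas2 gave no separation of these sides. Arntl2, a paralog of Arntl, had a slope of -0.26 (SE 0.18), with control 4 lowest at -5.83.

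All 7 measured repressors had positive slopes, against 10318 of 21411 features. Of the 7, 6 reached an unadjusted p under 0.05, where 11.9% of all features did in either direction. Ciart, also known as Chrono, a repressor that binds the BMAL1 pair, had the steepest slope of the 7. Its signal was -7.52 in control 1 and -6.10 in control 2, on whose arrays it was not well above background, -4.23 in dtg 1 and -3.52 in control 3. It was -3.002 in dtg 2, -3.32 in dtg 3, -3.96 in control 4 and -1.81 in dtg 4. The lowest and highest values lie with the lowest and highest Dbp, and the middle hearts overlap between the sides. The difference between the sides was 2.32 (SE 0.88, limma adjusted p = 0.528) and the slope 1.66 (SE 0.16, adjusted p = 0.144), a 3.17-fold change per doubling of Dbp. The size rests on how dim signals are treated: with normexp background correction the slope was 0.52 (SE 0.11). Ciart passed the adjusted threshold in the slope fit with an intensity trend (adjusted p = 0.0311), with median scaling (adjusted p = 0.00708), with array weights (adjusted p = 0.0134) and without control 4 (adjusted p = 0.0257).

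Bhlhe40, also called Dec1, which represses E-box genes, followed the Dbp level closely. It was -0.03 in control 1, 0.19 in control 2, 0.58 in dtg 1 and 0.76 in control 3, then 0.66 in dtg 2, 0.90 in dtg 3, 0.97 in control 4 and 1.23 in dtg 4. Apart from control 3 and dtg 2, which nearly tie in Dbp, the order is that of Dbp. The slope was 0.38 (SE 0.05, limma adjusted p = 0.18) and the difference between the sides 0.57 (SE 0.20).

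Per2 was -4.47 in control 1, -2.64 in control 2, -2.95 in dtg 1 and -2.45 in control 3. It was -1.94 in dtg 2, -2.26 in dtg 3, -2.37 in control 4 and -1.57 in dtg 4, all above the low side, with a difference of 1.09 (SE 0.43, limma adjusted p = 0.528) and a slope of 0.71 (SE 0.16). Without control 1 that slope was 0.37 (SE 0.19). The period genes Per1 and Per3 had slopes of 0.38 (SE 0.12) and 0.28 (SE 0.11) and overlapped between the sides. Cry2, a cryptochrome, had a slope of 0.36 (SE 0.10) with control 1 and control 2 lowest at 1.39 and 1.46. Bhlhe41 (Dec2), the paralog of Bhlhe40, had a slope of 0.11 (SE 0.14), and its other probe gave -0.02.

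**Figure D2:**
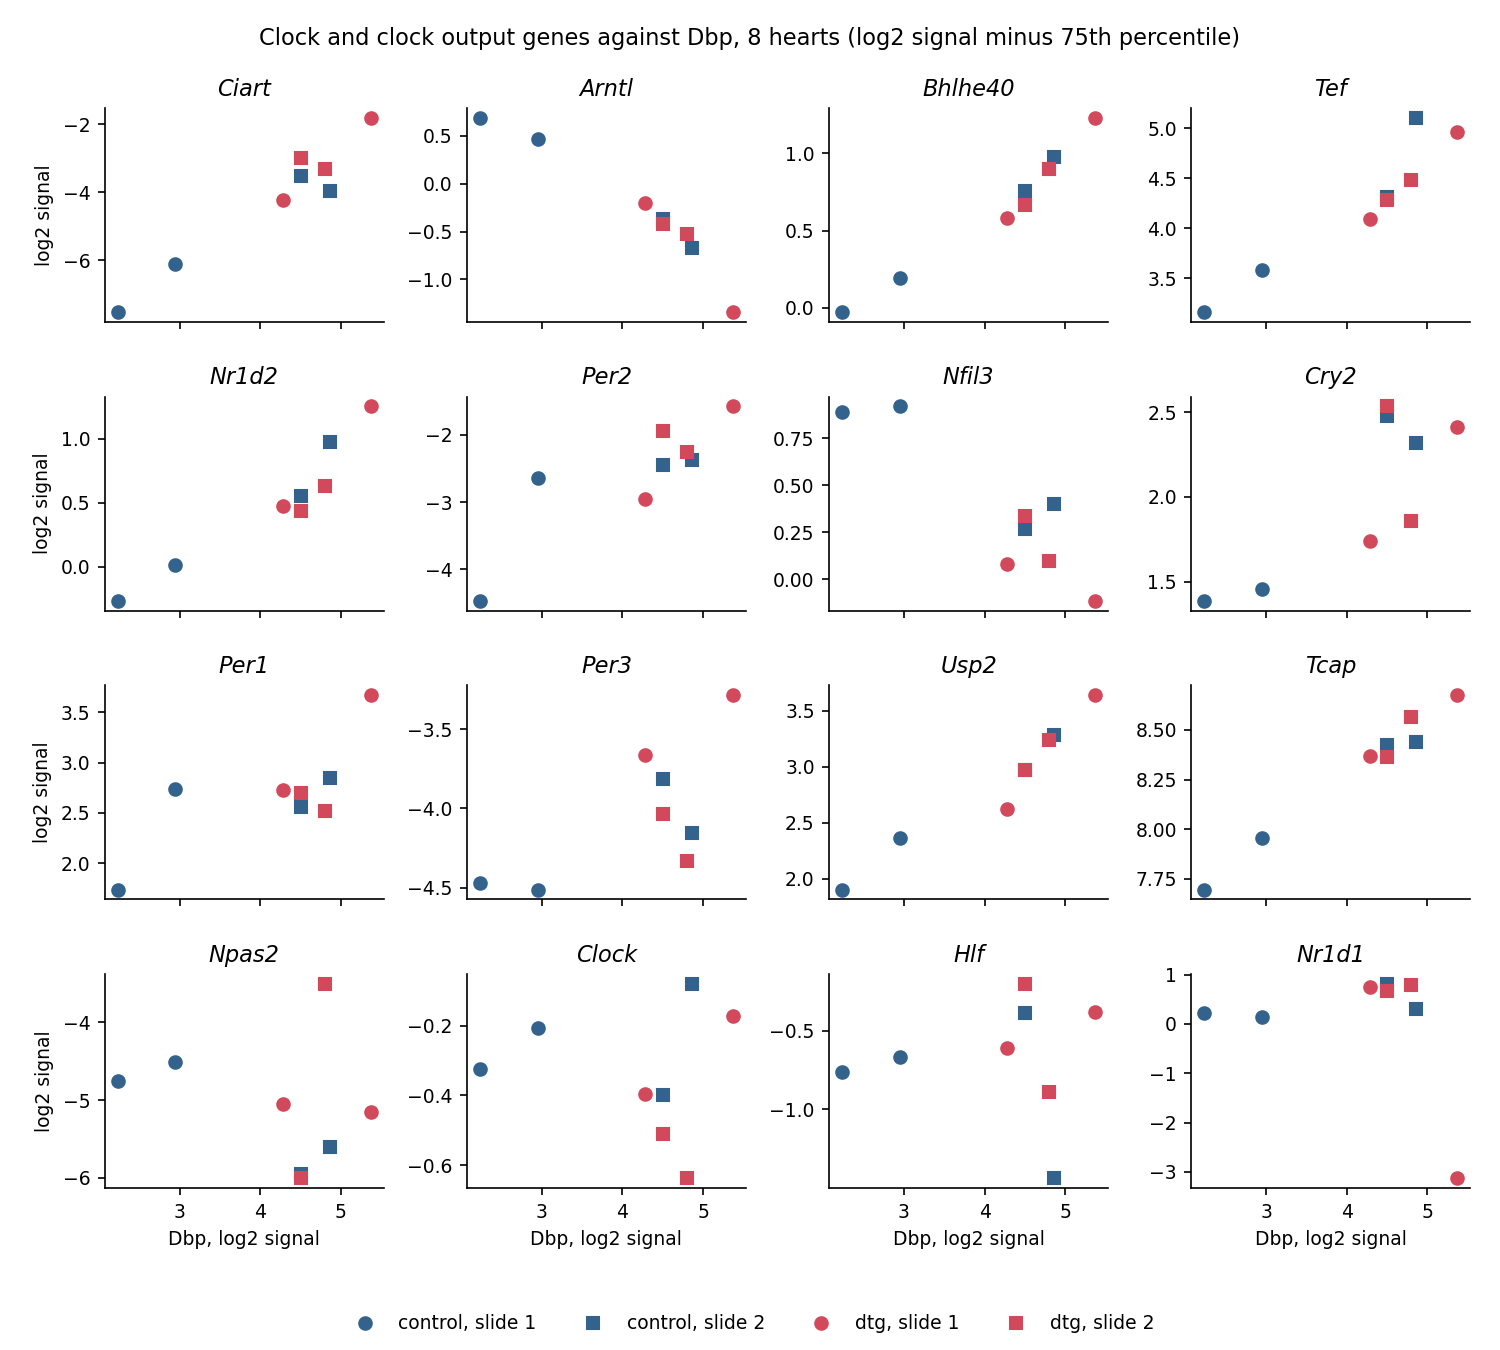
Signal of 16 genes (vertical axes) against Dbp signal (horizontal axes), both log2 minus the 75th percentile of the array, one symbol per heart, with blue for control, red for dtg, circles for slide 1 and squares for slide 2. Ciart, Bhlhe40, Tef, Nr1d2, Usp2 and Tcap are lowest in control 1, at the lowest Dbp, Arntl is highest there, and Nr1d1 has 1 low value, -3.13 in dtg 4.

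Among the nuclear receptors, Nr1d2, which encodes REV-ERB beta, varied with Dbp. It was -0.27 in control 1, 0.01 in control 2, 0.48 in dtg 1 and 0.55 in control 3, against 0.43 in dtg 2, 0.63 in dtg 3, 0.98 in control 4 and 1.25 in dtg 4. Its slope was 0.43 (SE 0.06, limma adjusted p = 0.377) and the sides overlapped in control 3, dtg 1 and dtg 2 only. Rora and Rorb, which encode activating receptors of the same sites, had slopes of -0.13 (SE 0.08) and -0.16 (SE 0.11).

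Nr1d1, which encodes REV-ERB alpha, lay between 0.13 and 0.81 in 7 hearts and at -3.13 in dtg 4, the heart with the highest Dbp. Its spot lies in a patch of low spots on that array. Of the features whose median over the other hearts was above -1, 7 were more than 3 log2 units lower on the dtg 4 array than that median (Acin1, Myo1c, Nr1d1, Psma6, Rnf135, Rpa3 and Txlnb), and all 7 spots lie within 7 rows and 4 columns of a grid of 532 rows and 85 columns. The 13 tested features inside that rectangle deviated by a median of -3.74 on the dtg 4 array and by -0.14 to 0.11 on the other arrays. No other array had more than 3 such low features. With all hearts the slope of Nr1d1 was -0.39 (SE 0.42), and without dtg 4 it was 0.20 (SE 0.09), positive as that of Nr1d2.

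**Figure D3:**
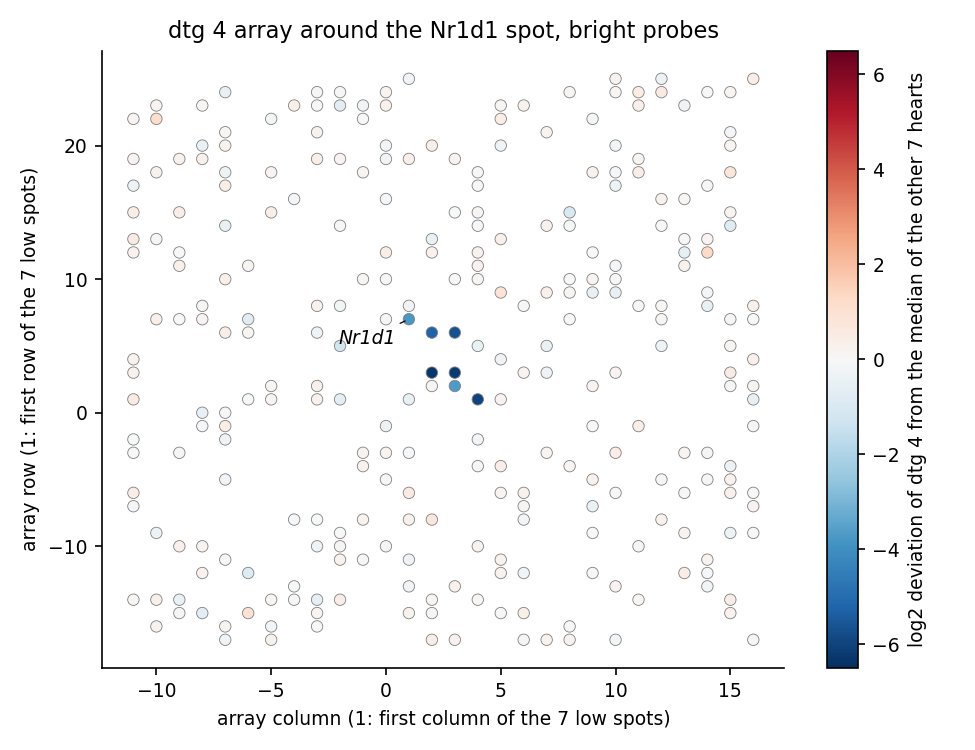
Spots of the dtg 4 array around Nr1d1, placed by array column and array row (both counted from the first column and row that hold the 7 low spots) and coloured by the log2 deviation of dtg 4 from the median of the other 7 hearts. Only probes with a median above -1 are drawn. The 7 dark blue spots, Nr1d1 among them, stand together, and the spots around them deviate little.

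The PAR bZIP factors did not vary alike. Tef was 3.16 in control 1, 3.58 in control 2, 4.10 in dtg 1 and 4.31 in control 3, and on the high side 4.28 in dtg 2, 4.48 in dtg 3, 5.11 in control 4 and 4.96 in dtg 4. Only dtg 2 lay below the highest heart of the low side, and the difference was 0.92 (SE 0.29, limma adjusted p = 0.528) with a slope of 0.58 (SE 0.08, adjusted p = 0.329). Hlf, the third factor of the family, lay between -1.44 and -0.20 with a slope of 0.01 (SE 0.13). Nfil3, the repressor of the same sites, was highest in control 1 at 0.89 and control 2 at 0.92. It was 0.08 in dtg 1, 0.27 in control 3, 0.34 in dtg 2, 0.10 in dtg 3, 0.40 in control 4 and -0.11 in dtg 4. The slope was -0.32 (SE 0.07, limma adjusted p = 0.415), and it rests on control 1, control 2 and dtg 4: without these hearts it was 0.22.

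Of the 19 clock genes, 15 kept the sign of their slope within control hearts and 16 within dtg hearts. These hearts also set the sign over all hearts, and the share of all features that kept theirs was not counted. The sign of Nr1d1 over all hearts carries the low value of dtg 4. Within the 4 control hearts the slopes of Arntl, Ciart, Bhlhe40 and Tef were -0.52, 1.46, 0.37 and 0.66, and 8 of 19 clock genes reached an unadjusted p under 0.05 against 17.7% of all features. Within the 4 dtg hearts they were -1.03, 1.94, 0.61 and 0.79, with 7 of 19 against 5.6%. The fit of the dtg hearts also includes the low value of Nr1d1 in dtg 4. Whether the slopes differ between the genotypes was not tested. Between the sides, the differences with slide as a block were -0.91 for Arntl, 2.12 for Ciart, 0.83 for Tef and 0.77 for Usp2. Within slide 1 alone they were -1.66 for Arntl and 4.14 for Ciart, and within slide 2 alone -0.17 and 0.09. The high side of slide 1 was dtg 4 alone and the low side of slide 2 control 3 alone. Each of these differences thus rests on a lone heart. In the slope fit with slide as a block, 11 of 19 reached that level against 6.48% of all features, and within slide 1, which holds the lowest and the highest Dbp, 10 of 19 did against 11.5%. Slide 2, where Dbp spans only 4.50 to 4.86, gave 3 of 19 against 15.0%, with slopes of -0.65 for Arntl, 1.66 for Tef and -1.30 for Ciart.

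Control 1 and control 2 carry much of the range in Dbp. Without these hearts 8 of 19 clock genes still reached an unadjusted p under 0.05, against 7.37% of all features. The 8 include Nr1d1 with the low value of dtg 4, as do the 11 with slide as a block. Of the 10 genes at that level in all hearts, all 10 kept their direction and 7 their p under 0.05. The 10 were picked in a fit that included these 6 hearts, so the kept directions are no separate support. Slopes over the 6 hearts were -1.02 for Arntl, 1.72 for Ciart, 0.61 for Bhlhe40, 0.88 for Tef and 0.79 for Nr1d2. Without dtg 4 the count was 10 of 19 against 16.7%. Without control 4, dtg 3 and dtg 4, the arrays that stood apart, it was 12 of 19 against 11.8%, with slopes of -0.49 for Arntl and 0.48 for Tef. Without control 1, control 2 and dtg 4 together, 2 of 19 remained at that level against 7.81%, so the 5 hearts in the middle of the Dbp range do not by themselves show the pattern beyond the background.

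**Figure D4:**
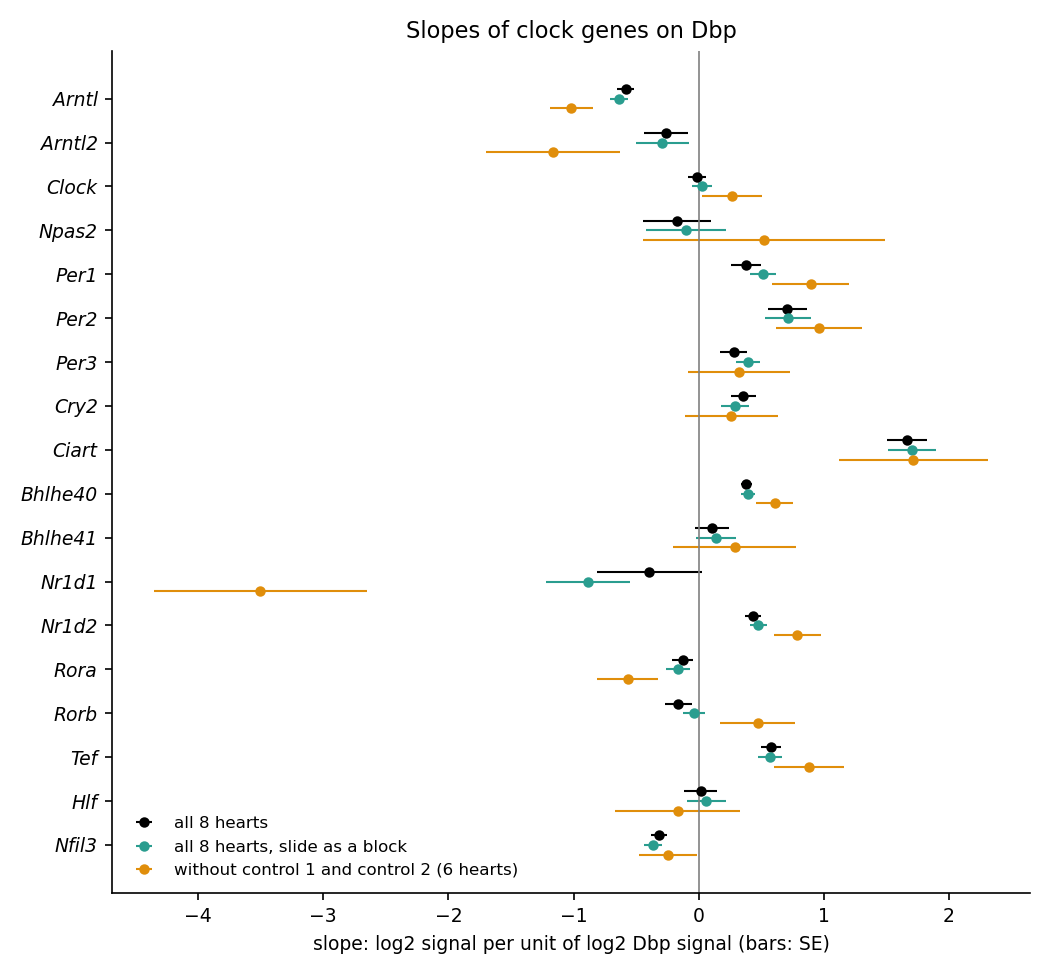
Slopes of 18 of the 19 measured clock genes (log2 signal per unit of log2 Dbp signal, points, with bars for the SE) in all 8 hearts, with slide as a block, and in the 6 hearts without control 1 and control 2. The slope of Arntl is negative and those of Ciart, Bhlhe40, Nr1d2, Per2 and Tef positive in all fits shown, and that of Nr1d1 carries the low value of dtg 4.

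Of the 14 measured kinases, ligases and proteases that act on clock proteins, 5 had a slope with Dbp at an unadjusted p under 0.05 and 0 had one against it, where 11.9% of all features had a slope at that level in either direction. Usp2, a ubiquitin protease with a strong daily rhythm in many tissues, was 1.90 in control 1, 2.37 in control 2, 2.62 in dtg 1 and 2.97 in control 3. It was 2.97 in dtg 2, 3.24 in dtg 3, 3.28 in control 4 and 3.64 in dtg 4, which is the order of Dbp but for the pair at 2.97. The difference between the sides was 0.82 (SE 0.24, limma adjusted p = 0.528) and the slope 0.51 (SE 0.06, adjusted p = 0.18). The others included Prkaa1, a catalytic subunit of AMPK (slope 0.20, SE 0.07), Csnk2a1 (0.19) and Tipin (0.15). Csnk1d and Csnk1e, the casein kinases that act on PER proteins, had slopes of 0.05 and 0.12. Usp2, Arntl, Bhlhe40, Tef and Tcap passed the adjusted threshold together with Ciart in the slope fit with an intensity trend (6 features in all, adjusted p from 0.0311 to 0.049), and these 5 in no other fit of the Dbp level.

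The 28 clock output genes, a list of transcripts known to be rhythmic in heart or other tissues, split in direction. A slope at an unadjusted p under 0.05 was found for 12 of 28, 8 with Dbp and 4 against it, against 11.9% of all features, and the median slope was 0.04. Tcap, the titin cap protein of the sarcomere, was 7.70 in control 1 and 7.95 in control 2 and between 8.36 and 8.67 in the other 6 hearts, with a slope of 0.30 (SE 0.04, limma adjusted p = 0.251). That group of 6 overlapped between the sides. Positive slopes were also found for Tspan4 (0.39), Kcnd2 (0.28) and Kcnh2 (0.24), the latter 2 potassium channel genes of repolarization, and for Coq10b (0.20), Tsc22d3 (0.20), Id2 (0.22) and Herpud1 (0.15). Negative slopes were found for Cdkn1a (-0.40), the cell cycle inhibitor p21, Lonrf3 (-0.25), Slc41a3 (-0.25) and Rgs16 (-0.18). Nampt, Wee1 and Klf15, genes with E-box or clock-dependent rhythms in many tissues, had slopes of 0.09, 0.17 and 0.15 that did not reach an unadjusted p under 0.05. Kcnip2, the KChIP2 subunit of the transient outward current, lay between 0.90 and 1.27 in 6 hearts but at 0.16 in control 4 and -0.27 in dtg 4.

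By the smallest unadjusted p between the sides, the first named genes in each direction were no clock genes, and none of them overlapped between the sides. Cdkn2a, a cell cycle inhibitor locus, lay between -3.58 and -3.34 on the high side and between -4.60 and -4.18 on the low side, a difference of 0.93 (SE 0.12, limma adjusted p = 0.528). Etv5, an ETS transcription factor, lay between 1.87 and 2.15 against 1.26 and 1.50, a difference of 0.58 (SE 0.10). Sox7, an endothelial transcription factor, Gpr34, a receptor of macrophages and microglia, and Tspan31 differed by 0.55, 0.73 and 0.49. The dim H2al1e and Cct6b differed by 0.61 and 0.49. Garem2, taken by the same rule, was well above background on the 4 arrays of the high side and on 0 of the low side, so it passed the filter through its high side alone and no size is given. Lower on the high side was Homer2, a scaffold protein, with values between 0.62 and 0.96 against 1.35 and 1.43 and a difference of -0.52 (SE 0.10). Zfp872 and Il17ra were well above background on the 4 arrays of the low side and on 0 of the high side and get no size for the same reason. Srebf2, the regulator of cholesterol synthesis genes, Slc25a30, a mitochondrial carrier, and Prrc1 differed by -0.45, -0.70 and -0.44. Sox1 differed by -0.55, and Slco1c1, a thyroid hormone transporter well above background on 2 of the 4 arrays of the high side, by -0.71. With slide as a block the differences were 0.95 for Cdkn2a, 0.58 for Etv5 and -0.59 for Homer2. None of these genes passed the adjusted threshold, and their adjusted p was 0.528 throughout.

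The slope fit ordered the genes differently. Among the genes outside the clock lists with the smallest p, named here after their values were seen, were Ppat, an enzyme of purine synthesis, and Adamts4, a matrix protease. Ppat was -1.77 in control 1, -1.51 in control 2, -1.17 in dtg 1 and -1.18 in control 3 against -0.98 in dtg 2, -0.99 in dtg 3, -0.81 in control 4 and -0.55 in dtg 4. Its sides did not overlap and its slope was 0.35 (SE 0.05, limma adjusted p = 0.375). Adamts4 had a slope of -0.55 (SE 0.09), Slc38a1, a glutamine transporter, -0.35 (SE 0.06) and Arl4d 0.26 (SE 0.05). Without control 1 and control 2 the slopes were 0.58 for Ppat and -1.14 for Adamts4.

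**Figure D5:**
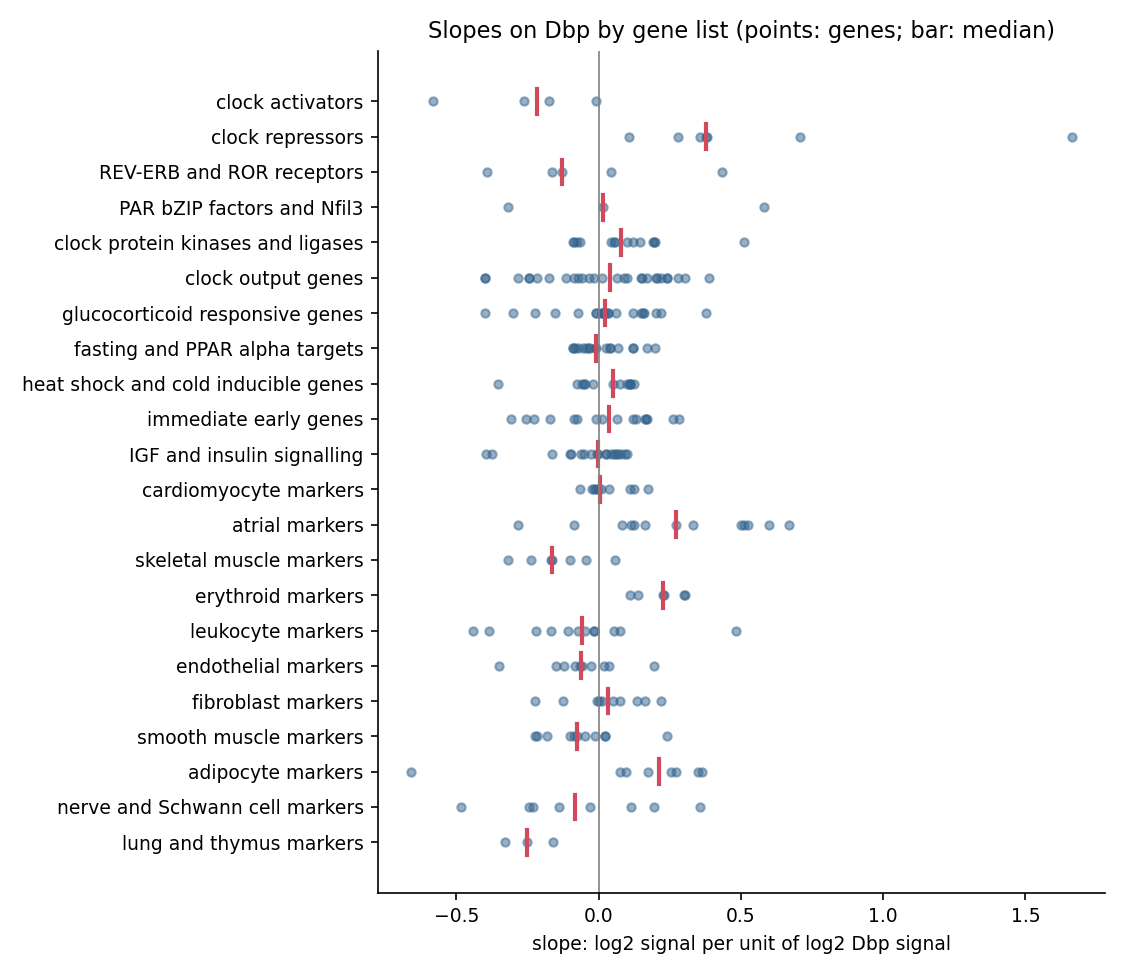
Slopes on Dbp (log2 signal per unit of log2 Dbp signal) of the measured genes of 22 lists, 1 point per gene and a red bar for the list's median. The repressors have a median of 0.38 with Ciart alone at 1.66, the atrial, erythroid and adipocyte markers of 0.27, 0.23 and 0.21, and the lists of glucocorticoid, fasting and heat shock genes lie around 0.

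For lists that respond to the state of the animal, the counts are to be read against the 11.9% of all features that reached an unadjusted p under 0.05 by slope. The 21 measured glucocorticoid responsive genes had a median slope of 0.02, with 4 at an unadjusted p under 0.05 (Cdkn1a, Tsc22d3, Cebpb and Per1). Of these, Per1 was already counted above as a repressor, and Cdkn1a and Tsc22d3 as clock output genes. Fkbp5, a standard marker of glucocorticoid action, had a slope of 0.15 (SE 0.08). The 18 measured fasting and PPAR alpha targets had a median slope of -0.01, with 2 at that level. The 13 measured heat shock and cold inducible genes had 0 at that level, with 7 slopes up and 6 down. Between the sides 12 of 13 were higher on the high side, against 11073 of 21411 features, with a median difference of 0.13. The 16 measured immediate early genes had 2 at that level and the 19 genes of IGF and insulin signalling 2, shares near that of all features.

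Markers of cell types moved as follows. All 6 measured erythroid markers were higher on the high side, against 11073 of 21411 features, by a median of 0.35. Hba-a1 lay between 7.90 and 8.25 on the high and between 7.12 and 8.00 on the low side. The slopes of Hba-a1, Hba-a2 and Hbb-b2, globin genes that near-identical copies share, were 0.30, 0.23 and 0.30. The summed erythroid signal ran from 712 to 955 on the high and from 488 to 754 on the low side, in multiples of the 75th percentile, and its part in the Dbp differences was not tested. Among 10 endothelial markers Esam was higher by 0.46 (SE 0.12) and Kdr, the VEGF receptor, lower by a difference of -0.67 (SE 0.23), with a list median of -0.13. With slide as a block the erythroid median was 0.44. The 11 smooth muscle markers had a median of -0.10, the 12 measured leukocyte markers of -0.09, and the 10 fibroblast markers of 0.10. Single members of these lists went opposite ways: among fibroblast genes Postn was at 0.46 (SE 0.14) and Dcn at -0.43 (SE 0.24), and among leukocyte genes Cd3g was at 0.75 (SE 0.52) and Cd79a of B cells, well above background on 2 of 4 arrays of the high side, at -0.78 (SE 0.23). The 13 atrial markers ranged widely from heart to heart, with sums from 77.6 to 659 on the high and from 67.5 to 488 on the low side, so their median difference of 0.00 stands beside large differences within each side. By slope 11 of 13 atrial markers were positive, with a median of 0.27 and 0 at an unadjusted p under 0.05; Sln and Myl7, an atrial calcium pump regulator and an atrial myosin light chain, had slopes of 0.60 (SE 0.64) and 0.50 (SE 0.57). The part of atrial signal in the Dbp slopes was not tested. The 8 measured adipocyte markers had a median difference of 0.20, the 7 measured skeletal muscle markers of -0.19 and the 8 measured nerve and Schwann cell markers of -0.07. Of 8 lung and thymus markers 3 were measured, all dim, and the surfactant genes Sftpc, Sftpb and Sftpa1 and the lymphocyte recombinase gene Rag1 did not pass the filter. Of 13 measures per array (signal level, share of probes above background and the means of 11 marker lists), none differed between the sides after adjustment, the smallest two-sided exact permutation p being 0.0857 for the smooth muscle markers (adjusted p = 0.668) where 4 against 4 hearts allow 0.0286.

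The genotype comparison was repeated with the Dbp side as a covariate. It gave 0 features at an adjusted p under 0.05 by limma and 421 (1.97%) at an unadjusted p under 0.05, against 162 without the covariate and 1128 with the Dbp level in its place. For Arntl, dtg minus control was -0.65 (SE 0.36) without a covariate, -0.28 (SE 0.35) with the side and -0.01 (SE 0.17) with the level of Dbp. For Ciart it was 2.19 (SE 0.92), 1.37 (SE 0.96) and 0.51 (SE 0.36), and for Nfil3 -0.52 (SE 0.18), -0.45 (SE 0.22) and -0.24 (SE 0.14). For Bhlhe41 it was 0.52 (SE 0.21), 0.54 (SE 0.26) and 0.59 (SE 0.26), and for Tef 0.42 (SE 0.41), -0.06 (SE 0.36) and -0.33 (SE 0.16). Over the 19 clock genes, the difference was smaller in size with the side than without a covariate for 11 and larger for 8, and the same numbers held with the level. Arntl2, Npas2, Clock and Hlf were among those with a larger difference, at 0.58, 0.68, -0.24 and 0.41 with the level against 0.11, 0.27, -0.18 and 0.30 without.

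Igf1r itself was 0.06 in control 1, 0.10 in control 2, 0.26 in control 3 and 0.92 in control 4, and -0.41 in dtg 1, -0.33 in dtg 2, 0.06 in dtg 3 and 0.31 in dtg 4. In each genotype the hearts of higher Dbp had the higher values, and dtg overlapped control. Dtg minus control was -0.43 (SE 0.24) without a covariate and -0.77 (SE 0.20, limma adjusted p = 0.745) with the Dbp level. The position of the Igf1r probe in the transcript, inside or outside the floxed exon, is unknown here, so its signal does not check the genotype.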

How the data were processed

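RNA of 4 control and 4 dtg hearts was hybridised to 1-colour arrays, 1 sample each, and the submitters' processing notes name Agilent Feature Extraction 10.7.3.1. The authors deposited, per array, processed signals on a linear intensity scale, corrected with local background per the file headers, with quality marks. Another table that the authors deposited holds log2 values. Compared with the scanner signals, these are quantile normalized log2 signals with each probe centred on its median (r = 1 per array). Its column medians were -0.0153, -0.0169, 0.0323 and 0.0179 for control 1 to 4 and 0.00513, 0.0069, -0.0325 and -0.00939 for dtg 1 to 4. Its scale and its centring are known from this comparison alone, and no source used here names its tool.

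Control and outlier spots were dropped, repeated spots were averaged per probe, and each array's 75th percentile was subtracted from the log2 signal. Symbols came from RefSeq accessions in a GRCm38.p6 gene table used for names alone (26369 of 39429 probes, 19987 symbols), and other probes kept the identifier in the file. Probes well above background on at least 4 of 8 arrays were kept (26095), and the probe with the highest mean stood for a gene, which left 21411 features, 14807 with a symbol. Differences between the sides, slopes on Dbp and genotype differences with a Dbp covariate were fitted with limma 3.58.1 in R 4.3.3 over all features, with Benjamini-Hochberg adjustment at 0.05; unadjusted p-values are given as a description. Dbp itself was not tested. The scripts were tested on simulated data.

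The members, gene lists and tests were chosen with earlier results of these data known. The genes named are all members of the 4 clock lists and Igf1r. Added to these were 8 per direction with the smallest p between the sides, without accessions, clones and gene models. Up to 4 of each other list were taken by smallest p between the sides. The sides did not overlap for any of the 8 per direction, which was not a condition of the choice. List members named for their slopes, and Adamts4, Arl4d, Ppat and Slc38a1, were picked once their values had been seen. A few members enter the counts but are not reported here. The slope fit's alternatives and the sides from quantile normalized Dbp were also added after the data were seen. Other alternatives were quantile, median and normexp scaling (normexp on the pixel median with an offset of 50, since the mean signal was not used here, and without spots darker than their background), other filters and probe rules, the authors' values, slide, genotype or replicate number in the model, array weights, an intensity trend, other boundaries between the sides, and leaving out each heart. Slide was read from the array headers. The number of arrays limits the precision.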

Additional observations from a re-analysis of the deposited data

Results flagged for a closer look

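Of 70 groups of 4 hearts of 1 genotype that were examined (clock genes and array measures), 5 held a heart whose gap to the nearest other exceeded Dixon's critical share of the range, at which chance alone marks about 1 in 20 groups. Nr1d1 was -3.129 in dtg 4, with the next dtg heart at 0.669, and its spot lies in the low area of that array described above. Per2 was -4.474 in control 1, with the next control heart at -2.637. In control 4, Arntl2 was -5.828 with the next control heart at -4.454, and Rora was -0.911 with the next at -0.425. The mean log2 signal of the erythroid markers was 3.333 in dtg 3, with the next dtg heart at 3.814.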

How the results depend on the processing

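With the side comparison, 12 features passed the adjusted threshold within slide 1, 2 within control hearts and 1 within dtg hearts, fits in which 1 side holds a lone heart that is assumed to vary like the others, and 0 in the other fits. At an unadjusted p under 0.05 its count of 1845 became 923 with median scaling, 2800 with genotype, 3206 with genotype and slide and 4398 with array weights (the weights of 1 such fit stopped before convergence). It was 6198 within slide 1, 726 within slide 2, 3601 within control and 304 within dtg hearts. It was 205 without control 1 and control 2, 456 without control 4, dtg 3 and dtg 4, 5084 without the hearts of rank 4 and 5, and 3223 with sides from quantile normalized Dbp. Leaving out each heart gave 537 (control 1) to 4058 (control 3). For the slope, 1 feature passed with median scaling, array weights or without control 4 and 6 with an intensity trend, and leaving out each heart gave 0 to 1. Its unadjusted count of 2540 became 4610 with genotype, 1387 with slide, 1199 within dtg hearts, 1577 without control 1 and control 2, 4261 with array weights and 1673 also without dtg 4, and leaving out each heart gave 855 (control 1) to 3573 (dtg 4). The genotype difference with the Dbp side gave 0 to 6 calls on leaving out each heart (6 without control 4 or dtg 1). Its 421 at an unadjusted p under 0.05 became 162 without a covariate, 804 with side and slide, 1128 with the Dbp level and 119 to 1749 on leaving out each heart. Deviations of the control and dtg hearts of the same replicate number correlated at 0.543, -0.544, 0.152 and 0.162. These values are partly mixed with slide and cannot show whether the numbers pair samples. With a replicate block 0 features passed and 273, 266 and 127 reached an unadjusted p under 0.05. Slopes turned sign within slide 2 for Per2 (-0.38), Per3 (-0.92), Cry2 (-1.12) and Ciart (-1.30), and without control 1, control 2 and dtg 4 for Per3 (-1.01) and Nfil3 (0.22). Of 910 values recomputed for 31 genes, 895 kept direction and side of the threshold, 9 newly passed it and 6 turned. These genes were picked by their values in the same hearts, and the refits reuse those hearts, so kept directions are no separate support. None of them passed the threshold in the main fits. They include Garem2, Zfp872 and Il17ra, which passed the filter on dim probes through 1 side alone. Of 682 list medians recomputed, 599 moved by less than 1 SD and 83 by more. With sides from quantile normalized Dbp the differences in the share of probes above background and in atrial markers turned to -0.323 and 0.925. On leaving out each heart the share ran from -1.04 to 2.60, and cardiomyocyte markers from -0.02 to 0.049, atrial from -0.47 to 0.30, adipocyte from -0.056 to 0.17 and lung and thymus markers from -0.632 to 0.0723.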
